A study of Mus musculus with 6 samples.

Results

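The genes described here are 9 markers of megakaryocytes and platelets, taken by symbol from the 16440 genes of the deposited table: Pf4, Ppbp, Itga2b, Itgb3, Gp1ba, Gp1bb, Gp5, Gp9 and Vwf. All 9 were in the table and all 9 passed the filter on low values. They were compared between normal myeloid progenitors (MPs) and c-Kit+ acute promyelocytic leukemia (APL) progenitors, with 3 RNA sequencing libraries in each group. The MPs were Lin-Sca-1-c-Kit+ cells sorted from the bone marrow (BM) of FVB N/J mice, a gate that is known to include megakaryocytic and erythroid precursors beside the granulocytic and monocytic ones. The APL cells were of the same strain, carried the hMRP8-PML/RARα transgene, whose promoter drives expression in myelomonocytic cells, and had been marked with GFP by a retroviral vector (MigR1) and expanded by transplantation into syngeneic mice before GFP+c-Kit+ cells were sorted. The labels name no drug treatment for either group. The design text calls the 3 libraries of a group biological replicates, but whether the APL libraries came from separate leukemias or from recipients of the same one is not given in the sources used here, nor is the age of the mice when the cells were sorted, so n counts libraries.

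Megakaryocytes descend from c-Kit+ progenitors that they share with the erythroid lineage, and shed platelets into the blood. They pack chemokines and adhesive proteins into α-granules and carry a pair of large adhesion receptors, the integrin αIIbβ3, which binds fibrinogen, and the GPIb-IX-V complex, which binds von Willebrand factor at a damaged vessel wall. The transcription factors GATA1, FOG1 (Zfpm1), NFE2, FLI1 and RUNX1 are known for driving this program.

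Values are given as scaled fragments, the fragments of a gene as the authors estimated and scaled them for each library, and, where genes are set against each other, as FPKM, which also takes account of transcript length. Before scaling the libraries held between 20607515 and 28381116 fragments. The values of a group are listed in the order of libraries 1, 2 and 3. Before scaling, a value of at most 3 fragments was taken to be within reach of 0, and a fragment became between 0.867 and 1.23 scaled fragments. Fold changes come from limma on log2(scaled fragments + 1), on which the added 1 makes the change of a low gene look smaller than it was, and a gene was called at an adjusted p below 0.05 with a fold change above 1.5. Kit itself lay between 10442 and 10970.1 scaled fragments in the MP libraries and between 5780.2 and 6033 in the APL libraries, and Ly6a, which encodes Sca-1, did not exceed 48.8 in any library. Mpo, the myeloperoxidase of myeloid progenitors, was abundant in both groups, at 211340.0 to 230111 and at 459396 to 558727 scaled fragments.

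The stretches upstream of 4 of the genes are shown because these genes form pairs that are set beside each other below. Pf4 and Ppbp are neighbours on chromosome 5, with 2374 bases between them. Gp5 and Gp1bb are subunits of the same receptor, both on chromosome 16. Within each pair the 95% intervals of the log2 fold changes did not overlap, but a partner in each has a limit. Ppbp held 23 fragments in the MP and 15 in the APL libraries before scaling, and its direction was not resolved. Gp1bb shares its locus in the table with Septin5, and its values are estimates. The part of the upstream stretches in the levels was not tested. Each sequence is the 250 bases before the RefSeq transcription start on GRCm38.p6, read on the strand of the gene. Capitals mark GATA hexamers, which are AGATAA or TGATAA or AGATAG or TGATAG, and ETS hexamers, which are AGGAAG or CGGAAG, searched on both strands, so that a match on the opposite strand appears as its reverse complement. The stretches are chr5:90772185-90772434 on the plus strand for Pf4, chr5:90768268-90768517 on the plus strand for Ppbp, chr16:30310782-30311031 on the minus strand for Gp5 and chr16:18622404-18622653 on the minus strand for Gp1bb.
Pf4: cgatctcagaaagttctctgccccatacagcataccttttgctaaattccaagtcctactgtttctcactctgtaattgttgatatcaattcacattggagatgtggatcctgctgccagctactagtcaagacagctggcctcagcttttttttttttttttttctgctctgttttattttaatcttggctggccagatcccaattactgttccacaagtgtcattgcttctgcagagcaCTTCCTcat
Ppbp: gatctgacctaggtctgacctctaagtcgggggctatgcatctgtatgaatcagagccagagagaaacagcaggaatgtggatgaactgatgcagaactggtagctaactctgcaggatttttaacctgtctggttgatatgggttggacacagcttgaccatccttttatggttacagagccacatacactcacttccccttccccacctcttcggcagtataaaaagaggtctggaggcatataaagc
Gp5: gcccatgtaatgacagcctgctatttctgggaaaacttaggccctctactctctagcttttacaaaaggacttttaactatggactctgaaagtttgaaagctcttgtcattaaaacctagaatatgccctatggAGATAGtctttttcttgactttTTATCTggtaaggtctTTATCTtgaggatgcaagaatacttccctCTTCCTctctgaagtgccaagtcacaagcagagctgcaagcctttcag
Gp1bb: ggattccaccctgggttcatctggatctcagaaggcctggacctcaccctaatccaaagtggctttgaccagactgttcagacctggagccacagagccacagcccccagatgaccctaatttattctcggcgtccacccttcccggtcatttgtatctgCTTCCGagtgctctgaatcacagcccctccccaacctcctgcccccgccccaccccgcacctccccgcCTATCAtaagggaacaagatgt

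RefSeq promoters were at hand for 7 of the 9 genes. An ETS hexamer was found in 6 of the 7 and a GATA hexamer in 3 (Gp1ba, Gp1bb and Gp5), against 39.2% and 26.5% of all 32851 promoter windows of this length. No GATA hexamer overlapped an ETS hexamer in these 7 windows. Gp5 held 3 GATA hexamers, which began 115, 93 and 77 bases before the start, and an ETS hexamer that began 48 bases before it. Gp1bb held a GATA hexamer 22 bases and an ETS hexamer 90 bases before its start, Pf4 an ETS hexamer 9 bases before its start, and Ppbp neither.

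Megakaryocyte and platelet genes were low in c-Kit+ APL progenitors. Of the 9 genes, 7 fell and none rose, and Ppbp and Gp1bb passed the test in neither direction (limma, with Benjamini-Hochberg adjustment over the 14595 genes tested). Over all genes tested, 24.4% were called lower and 21.7% higher. The 9 genes had a median of −2.67 on the log2 scale, beside −0.10 over all genes tested. For the same 7 genes every APL library lay below every MP library, an arrangement that 39.8% of all genes tested shared. The groups were apart, in whichever direction, for 70.9% of all genes tested. Between them the 9 genes summed to 78.6, 76.2 and 112 FPKM in the MP libraries and to 4.77, 5.03 and 6.41 in the APL libraries. In such bulk samples a smaller number of megakaryocytic cells and less RNA per cell cannot be told apart. The plot of the genes by library shows the 7 decreases as separate clusters of points.

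**Figure D1:**
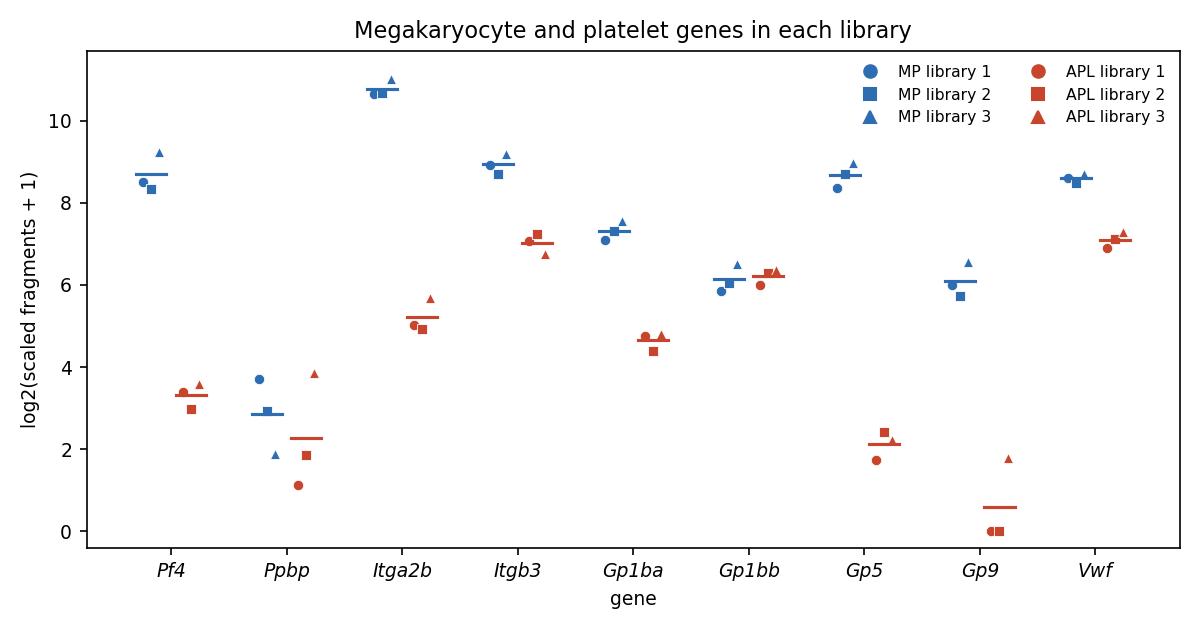
Values of the 9 genes in each library, as log2(scaled fragments + 1), with MP libraries in blue, APL libraries in red, a marker shape for each library number and a line at the group mean. The groups lie apart for 7 genes and overlap for Ppbp and Gp1bb.

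The α-granule chemokines were measured as Pf4, platelet factor 4, and Ppbp, pro-platelet basic protein. Pf4, on chromosome 5 of GRCm38 from 90772435 to 90773383, reached 362, 321 and 604 scaled fragments in normal MPs but 9.43, 6.94 and 11.1 in c-Kit+ APL progenitors. The groups did not come near each other, and MP library 3 stood above the other MP libraries. Pf4 fell 46.9-fold in the group means, a log2 fold change of −5.37 (SE 0.28, limma adjusted p = 4.4e-07). Without MP library 3 the log2 fold change was −5.10. The APL libraries held 25 fragments of Pf4 in all before scaling, and the ratio of the unscaled sums was 48.6 with an exact 95% interval of 32.8 to 75.4, which covers counting error only.

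The direction of Ppbp was not resolved. Its level was 12.2, 6.66 and 2.71 scaled fragments in normal MPs and 1.18, 2.60 and 13.6 in c-Kit+ APL progenitors. These are 13, 7 and 3 fragments before scaling against 1, 3 and 11. The groups overlapped, with MP library 1 and APL library 3 high and near each other and the remaining libraries lower. The log2 fold change of −0.57 had a 95% interval from −2.23 to 1.09 (adjusted p = 0.51 from limma), so neither a marked decrease nor an increase was excluded at this depth. Leaving out APL library 3 gave −1.36 (adjusted p = 0.077) and leaving out APL library 1 gave 0.0077, so the value rested on single libraries. Within each library, the log2 ratio of Pf4 to Ppbp was 4.79, 5.39 and 7.35 in the MPs and 2.26, 1.14 and −0.27 in the APL cells. The difference of the group means was −4.80, and a two-sided exact permutation test gave p = 0.1, the smallest that 3 libraries against 3 allow.

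The integrin αIIbβ3 is built from Itga2b, the αIIb chain that marks the megakaryocytic lineage from its progenitors on, and Itgb3, the β3 chain. Itga2b, on chromosome 11 from 102453297 to 102469883, was at 1611, 1640.5 and 2056 scaled fragments in normal MPs and at 31.8, 29.5 and 50.6 in c-Kit+ APL progenitors. The groups were far apart, and library 3 was the highest in both. Itga2b fell 47.4-fold, a log2 fold change of −5.56 (SE 0.21, limma adjusted p = 6.5e-08). Itgb3, on chromosome 11 from 104608000 to 104670471, had 482, 418 and 582 scaled fragments in the MPs and 133, 151 and 107 in the APL cells. The groups did not overlap, and the APL cells kept 26.4% of the MP level, against 2.11% for Itga2b. Itgb3 fell 3.79-fold, a log2 fold change of −1.91 (SE 0.17, limma adjusted p = 1.2e-05).

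Which chain had the higher value differed between the groups in every library. The log2 ratio of Itgb3 to Itga2b was −1.74, −1.97 and −1.82 in normal MPs and 2.03, 2.32 and 1.07 in c-Kit+ APL progenitors, a difference of 3.65 between the means (two-sided exact permutation test, p = 0.1, the smallest possible). In FPKM, Itga2b was above Itgb3 in the MPs, at 18.6 ± 2.16 against 3.04 ± 0.475 (SD, n = 3), and below it in the APL cells, at 0.396 ± 0.128 against 0.794 ± 0.131. The β3 chain also pairs with Itgav, the αV chain, which was chosen after its values were seen. Itgav had 449, 475 and 398 scaled fragments in the MPs and 809, 758 and 729 in the APL cells, and it rose with a log2 fold change of 0.80 (SE 0.10, limma adjusted p = 9e-05).

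**Figure D2:**
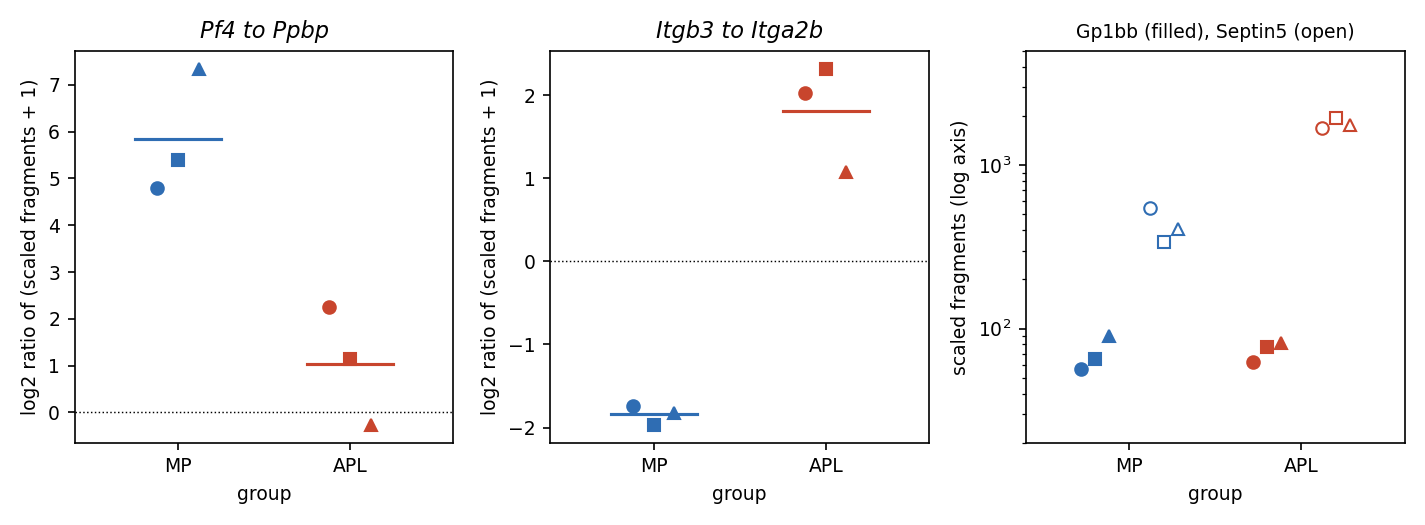
Pairs of genes within each library, with MP libraries in blue, APL libraries in red and a marker shape for each library number. The left and middle panels give the log2 ratio of (scaled fragments + 1) with a line at the group mean, and the right panel gives scaled fragments of Gp1bb (filled) and Septin5 (open) on a log axis. The Itgb3 to Itga2b ratio is below 0 in the 3 MP libraries and above 0 in the 3 APL libraries.

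The GPIb-IX-V complex is made of Gp1ba, the chain that binds von Willebrand factor, Gp1bb, which is linked to it, Gp9, which the complex needs to reach the surface, and Gp5. Gp5, on chromosome 16 from 30307685 to 30310781, had the most negative fitted log2 fold change of the 9 genes. Its level was 325, 415 and 499 scaled fragments in normal MPs and 2.36, 4.33 and 3.70 in c-Kit+ APL progenitors, the last of which are 2, 5 and 3 fragments before scaling. No APL library came near the MP range. The fitted log2 fold change was −6.54 (SE 0.26, limma adjusted p = 9.9e-08), and the unscaled sums stood at a ratio of 116 with a counting interval of 63.1 to 243. Only 0.86% of all genes tested had a more negative log2 fold change.

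Gp9, on chromosome 6 from 87778136 to 87779762, had 62.7, 52.4 and 93.8 scaled fragments in the MPs, none in APL libraries 1 and 2 and 2.47 in APL library 3. This makes 226 fragments in the MP libraries against 2 in the APL libraries, a ratio of 98.5 with a counting interval of 27.0 to 818. Gp9 fell (limma adjusted p = 1.7e-05), but its fitted log2 fold change of −5.50 depends on the added 1, and its depth does not allow its decrease to be ranked against that of Gp5. Gp1ba, on chromosome 11 from 70639122 to 70642055, had 136, 158 and 186 scaled fragments in the MPs and 25.9, 19.9 and 27.2 in the APL cells. The groups were apart, with little spread within either. Gp1ba fell 6.57-fold, a log2 fold change of −2.67 (SE 0.21, limma adjusted p = 5.5e-06). The decrease of Gp1ba was smaller than that of Gp5, and the 95% intervals of their log2 fold changes, −3.14 to −2.19 and −7.14 to −5.94, did not overlap. The plot of fold changes sets the 4 subunits beside each other.

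**Figure D3:**
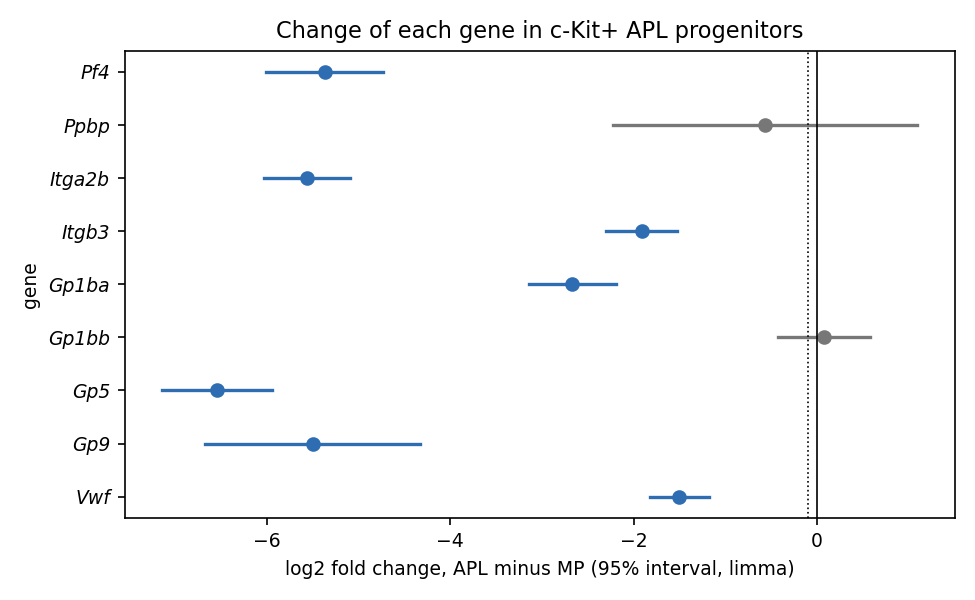
Log2 fold change of each gene, APL minus MP, with its 95% interval from limma. Blue marks the 7 genes called lower, grey the genes not called, and the dotted line the median of all genes tested, −0.10.

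Gp1bb, unlike the other subunits, passed the test in neither direction. Its level was 56.8, 65.5 and 89.9 scaled fragments in normal MPs and 62.5, 76.8 and 81.9 in c-Kit+ APL progenitors. The groups overlapped, and the log2 fold change of 0.08 had a 95% interval from −0.43 to 0.58 (adjusted p = 0.78 from limma), which did not reach the intervals of Gp1ba, Gp5 or Gp9. Its sign changed with the scaling, from −0.0519 with every library set to the same total to 0.433 with quantile normalization. Gp1bb was the only member whose locus in the table overlapped that of another gene. The table gave Gp1bb and Septin5, a septin of the cytoskeleton, the same locus, chromosome 16 from 18620319 to 18629938. In RefSeq the genes lie on the same strand, Gp1bb from 18620319 to 18622403 and Septin5 from 18621811 to 18629938, with 593 bases in common.

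Septin5 had 548, 336 and 408 scaled fragments in the MPs and 1678, 1932 and 1746 in the APL cells, and it rose by 2.08 on the log2 scale (SE 0.16, limma adjusted p = 5e-06). The value of Gp1bb was 10.4%, 19.5% and 22.0% of that of Septin5 in normal MPs and 3.73%, 3.97% and 4.69% in c-Kit+ APL progenitors. Before scaling, the value of Gp1bb was not within 0.02 of a whole number in any library, so it is an estimate rather than a count. How fragments of the shared bases were divided between the genes is not given in the sources used here, and its part in the value of Gp1bb was not tested.

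Vwf encodes von Willebrand factor, the ligand of the GPIb-IX-V complex, which megakaryocytes and endothelial cells make. On chromosome 6 from 125552948 to 125686679, it had 389, 354 and 418 scaled fragments in the MPs and 118, 137 and 156 in the APL cells. The groups did not overlap, and with 35.4% of the MP level left in the APL cells its decrease was the smallest of the 7. Vwf fell 2.83-fold, a log2 fold change of −1.50 (SE 0.14, limma adjusted p = 1.7e-05), and the 95% interval of −1.82 to −1.18 overlapped that of Itgb3, −2.30 to −1.53. Of 11 endothelial markers tested, 7 fell and 2 rose (Flt1 and Stab2), where 24.4% of all genes tested were called lower and 21.7% higher. Among the 7 were Tek, Plvap, Robo4 and Tie1, with log2 fold changes of −6.06, −5.83, −5.72 and −3.57. Cdh5 had at most 3 fragments in every MP library and Kdr, Tek, Emcn and Robo4 had at most 3 in every APL library. The summed level of the list lay between 2981 and 3763 scaled fragments in the MPs and between 4852 and 5205 in the APL cells, of which Flt1 alone held between 3757 and 4224 in the APL cells and between 48.6 and 59.9 in the MPs. The part of such cells in the level of Vwf was not tested.

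Per transcript length, Pf4 was the most abundant of the 9 genes in normal MPs, at 47.4 ± 14.5 FPKM (SD, n = 3). It was followed by Itga2b (18.6 ± 2.16), Gp5 (9.16 ± 1.71), Gp9 (4.61 ± 1.23), Itgb3 (3.04 ± 0.475), Gp1ba (2.19 ± 0.362), Gp1bb (2.19 ± 0.409), Vwf (1.53 ± 0.103) and Ppbp (0.309 ± 0.202). The libraries of neighbours in this order overlapped for Gp1ba and Gp1bb alone. In c-Kit+ APL progenitors Gp1bb, which shares its locus in the table with Septin5, came first at 1.94 ± 0.31 FPKM. Every APL library of Gp1bb lay above those of the next gene, Pf4 (1.02 ± 0.185). Itgb3, Vwf, Itga2b, Gp1ba, Ppbp, Gp5 and Gp9 followed, from 0.794 ± 0.131 to 0.0544 ± 0.0942 FPKM. Among the APL neighbours only Gp1bb and Pf4, and Itgb3 and Vwf, did not overlap, so most of this order was not resolved.

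Within the MPs, library 3 was the highest of the 3 libraries for 8 of the 9 genes, the exception being Ppbp, which was lowest there. Library 3 was the highest MP library for 56.3% of all genes tested. For the 7 genes that fell, library 3 held between 1.12 and 1.77 times the mean of MP libraries 1 and 2, with Vwf at the lower and Pf4 at the upper end, against a median of 1.09 over all genes tested. All 7 were also called lower without MP library 3.

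Markers of the related erythroid lineage were low as well. Of 17 erythroid markers tested, 16 fell, and the summed level of the 19 in the table went from between 84537 and 103143 scaled fragments in the MP libraries to between 463 and 719 in the APL libraries. Of 9 mast cell and basophil markers tested, a lineage that can also carry Itga2b, 7 fell and 1 rose (Mcpt8), and the sum of the 12 in the table went from between 3685 and 4479 to between 1441 and 1777. Of these Gzmb, Tpsb2, Cma1, Mcpt4 and Il4 had at most 3 fragments in every APL library. Il4 and Cd200r3 had at most 3 in every MP library as well. Tpsb2 and Mcpt4 were also low in the MPs, with at most 5.62 and 7.21 scaled fragments. Of 12 mature neutrophil markers tested, 5 rose and 2 fell (Ltf and Ngp). Their sum went from between 70976 and 127113 in the MPs to between 220856 and 229005 in the APL cells. S100a8 and S100a9 held most of this sum, with means of 29600 and 31400 scaled fragments in the MPs and 131000 and 64800 in the APL cells. In the remaining lists, 2 of 5 T and NK cell markers fell, and 3 of 6 B cell markers fell and 2 rose. Of 9 macrophage markers 4 fell and 3 rose, and of 7 stromal markers 3 fell and 3 rose. Over all genes tested, 24.4% were called lower and 21.7% higher. The part of all these cells in the levels of the 9 genes was not tested.

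Beyond the 9 genes, 125 other genes of the megakaryocyte and platelet program were listed by role, of which 122 were tested. Of these 47 fell (38.5%) and 33 rose (27.0%), beside 24.4% and 21.7% of all genes tested, and their median log2 fold change, −0.10, equalled that of all genes. The decreases lay most densely among the surface receptors, where 17 of 26 fell and 6 rose. These counts include genes that were low in both groups, named here for their low values. Itga2 and Cd226 fell from means of 6.17 and 3.36 scaled fragments to 0 and 0.411. Clec1b rose from 0.902 to 3.75, and the libraries of the groups overlapped for Cd226 and Clec1b. Among the cytoskeletal genes 4 of 17 fell and 7 rose. No test of a list against other genes was made.

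**Figure D4:**
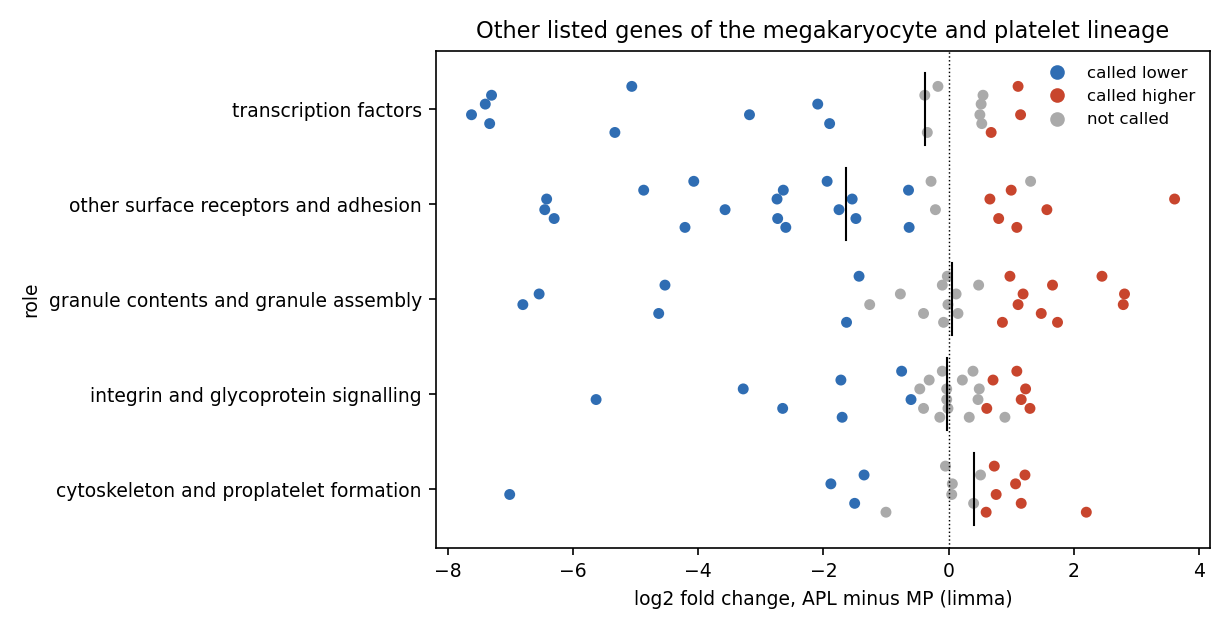
Log2 fold change, APL minus MP, of the other megakaryocyte and platelet genes tested in 5 of the roles, as 1 point a gene, with a black line at the median of each role. Blue points were called lower, red points higher and grey points neither. The medians run from −1.65 for the surface receptors to 0.40 for the cytoskeletal genes.

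Of 19 transcription factors, 9 fell (47.4%) and 3 rose (15.8%), beside 24.4% and 21.7% of all genes tested. Their median log2 fold change was −0.38. Zfpm1 and Gata1 had the most negative fitted log2 fold changes, −7.62 (SE 0.37) and −7.40 (SE 0.41). Meis1 and Gfi1b, named here after their values were seen, were close at −7.33 and −7.30 (SE 0.28 each), so this order was not resolved. Gata1 had 7.07, 18.2 and 29.6 scaled fragments in the APL libraries. Fli1, an ETS factor of the megakaryocytic lineage, rose from 1126 ± 67.4 to 2440.0 ± 185 scaled fragments (SD, n = 3 each, log2 fold change 1.11), and Mkl1, a cofactor of serum response factor, rose by 1.15 on the log2 scale. Nfe2 and Runx1, chosen after their values were seen, were higher in every APL library than in every MP library, with log2 fold changes of 0.53 and 0.52 that did not reach the fold change threshold.

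Of the 7 listed genes of cytokine signalling in the lineage, 4 fell (57.1%) and 1 rose (14.3%), beside 24.4% and 21.7% of all genes tested. The kinase Jak2, named here after its values were seen, had 2748 ± 30.3 and 1745 ± 69.5 scaled fragments in the MPs and the APL cells (log2 fold change −0.66), and the transcription factor Stat5a 3485 ± 426 and 1490 ± 113.0 (log2 fold change −1.22). Socs3, an inhibitor of cytokine signalling, rose from 36.4 ± 11.3 to 147 ± 7.92 scaled fragments.

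Among the other surface receptors, the thrombin receptor F2r fell by 6.42 on the log2 scale, to 13.4 ± 3.51 scaled fragments from 1237 ± 313, and Slamf1 had 305 ± 50.8 in the MPs and 2.48 ± 0.122 in the APL cells, which is 2 or 3 fragments in each APL library. The prostacyclin receptor Ptgir rose from 106 ± 11.5 to 1294 ± 75.3 (log2 fold change 3.61), and Fcer1g, the signalling chain that platelets pair with the collagen receptor Gp6, from 820.0 ± 136 to 1728 ± 57.5. Gp6 itself, the inhibitory receptor Mpig6b and Adra2a were too low to be tested. Selp and Treml1, α-granule membrane proteins chosen after their values were seen, were both lower. Selp had 188, 196 and 197 scaled fragments in the MPs and 17.7, 37.3 and 34.6 in the APL cells, while Treml1 had 89.0, 66.6 and 149 against 0, 0.867 and 0.

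Of 26 granule genes, 6 were lower (23.1%) and 10 higher (38.5%), beside 24.4% and 21.7% of all genes tested. Angpt1, an angiopoietin carried in α-granules, fell by 6.80 on the log2 scale, to 22.1 ± 7.66 from 2506 ± 404 scaled fragments. Rab27b, a GTPase of dense granules, had a log2 fold change of −6.54, with 217 ± 33.7 and 1.69 ± 1.47. The APL libraries held 0, 2.60 and 2.47 scaled fragments of Rab27b, so the size of its fitted change depends on the added 1. With FPKM and a pseudocount of 1 it was −1.03. F13a1, the A chain of coagulation factor XIII, which monocytic cells also make, rose from 4367 ± 501 to 30090 ± 1510 (log2 fold change 2.79), and the serpin Serpine2 rose from 1028 ± 33.3 to 7218 ± 232 (log2 fold change 2.81). Of the 27 signalling genes 7 fell (25.9%) and 6 rose (22.2%), which is near the shares of all genes tested. Prkcq, a protein kinase C, had a log2 fold change of −5.63 and Rgs10, a regulator of G protein signalling, one of −2.65, while the adaptor Lcp2 and the calcium channel Orai1 had 1.30 and 1.23. Among the cytoskeletal genes, Pdlim1 fell by 7.01 on the log2 scale, to 13.3 ± 4.79 from 1787 ± 302 scaled fragments, and the tropomyosin Tpm4 had a log2 fold change of −1.88. Thymosin β4 (Tmsb4x) and non-muscle myosin heavy chain (Myh9) rose, with log2 fold changes of 2.20 and 1.22.

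The genes whose profile over the 6 libraries was most like the mean profile of the 8 members with a negative log2 fold change were Tmcc2, 6330416G13Rik, Bpifc, Plekha5 and H2-T24, with Pearson r between 0.9991 and 0.9999. Among the 10305 genes compared, 453 had an r above 0.99 with this profile. For Gp1bb, the only member with a positive log2 fold change, they were Pik3c3, Tssc1, Ddx19a, Mdh1 and Cdk9, with r between 0.9812 and 0.9903. These r are across 6 libraries that fall into separate groups and are given as a description.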

How the data were processed

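The authors sequenced total RNA of 3 normal MP and 3 c-Kit+ APL libraries prepared with the TruSeq RNA kit. They deposited a table with FPKM values, which take account of transcript length and library depth, and with a signal of estimated fragments for each gene, multiplied by a library-specific factor. The scaling was read from the step between low values. After division by it, between 88.3% and 89.7% of the values up to 100 fragments were within 0.02 of a whole number, so no count-based test was used. The study's methods name STAR alignment to mm9, unique reads, HTSeq-count and DESeq2, with the fold change threshold of 1.5 that was kept here, whereas the submitters' processing notes list CASAVA 1.8, TopHat2 2.0.6 and mm10. The tool that made the table is not given in the sources used here. Its loci are on GRCm38 with starts counted from 0 (7057 of 16336 starts lay 1 base below that of RefSeq, 586 were equal), so 1 was added to each start. Differential expression was tested with limma 3.58.1 in R 4.3.3 (lmFit, eBayes, mean-dependent prior variance), fitted to log2(scaled fragments + 1). Genes below 1 scaled fragment in more than 3 of the 6 libraries were left out, and 14595 stayed. Benjamini-Hochberg adjustment was over all genes tested. Single values were compared with two-sided exact permutation tests (scipy 1.17.1). Intervals of count ratios are exact (Clopper-Pearson) at 95% and, like the limit of 3 fragments, cover counting error only. The 9 genes and the lists of other genes were chosen with earlier results of these data known. Named from the lists were, per role, up to 2 called genes with the most negative and 2 with the most positive log2 fold change and a mean of at least 100 scaled fragments in a group, and the 5 genes of highest Pearson r with the members. Septin5, which the table lists under a date, was identified by its gene identifier. Results of some listed genes are left out of the text. Alternatives covered the low-value filter, the pseudocount, FPKM, scaling, voom, a replicate block, thresholds and each library left out.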

Additional observations from a re-analysis of the deposited data

How the results depend on the processing

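The 7 decreases were called in each of the 20 alternatives except the filter that asks for at least 1 scaled fragment in all 6 libraries, which leaves Gp9 out of the test and called the other 6; no alternative called a member higher. With FPKM and a pseudocount of 1, 2205 genes were called lower over 13201 genes tested, against 3558, and the decreases of the members shrank, that of Gp5 to −3.22, of Gp9 to −2.39, of Gp1ba to −1.25 and of Vwf to −0.714, in part by construction, since 1 is large beside low FPKM values. Signs turned for the members that were not called. Ppbp had 0.0645 with quantile normalization and 0.0077 without APL replicate 1, and Gp1bb had −0.117 and −0.165 with FPKM (pseudocounts 1 and 0.1), −0.0519 with the same total, −0.054 with voom, −0.0655 without MP replicate 1 and −0.00225 without APL replicate 3, against 0.08 with all libraries. With 1 library left out Ppbp ranged from −1.36 to 0.0077 and Gp1bb from −0.0655 to 0.261; the cause was not tested. Setting every library to the same total moved the median of all genes from −0.10 to −0.23, and calls of lower expression then made up 60.8% of calls against 52.9%. With 1 library left out at a time the difference in the Itgb3 to Itga2b ratio ranged from 3.39 to 4.02 and that in the Pf4 to Ppbp ratio from −5.41 to −4.05.

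When the library number entered as a replicate block, 3589 genes were called lower and 3164 higher, 7 members and 48 other megakaryocyte and platelet genes lower and 34 higher, and no call of a named gene changed; both ratios kept their differences of 3.65 and −4.80 (paired exact permutation test, p = 0.25, the smallest that 3 pairs allow). The labels give the MP and APL libraries only a number in common. Where the number was the same, deviations from the group means correlated at 0.214, 0.042 and 0.209 over 10310 genes. Where it differed, they correlated at between −0.345 and 0.2. Depth limits Ppbp, Gp5 and Gp9, each with at most 15 fragments in the APL libraries together.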
